A study of Mus musculus with 2 samples.

Results

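The genes that encode the chains of integrins and laminins were read in single cells of cultured mouse brain pericytes (PCs), at passage 5 (PC5) and at passage 20 (PC20). They were taken by symbol alone. A gene counted as an integrin gene where its symbol is *Itga* or *Itgb* followed by the number or letters of its chain. It counted as a laminin gene where the symbol is *Lama*, *Lamb* or *Lamc* followed by 1 digit. No measured value entered this rule, but earlier results of these data were known when the genes were chosen. The rule gave 38 of the 31053 genes in the deposited tables. Of these, 27 encode integrin chains (18 α and 9 β) and 11 encode laminin chains (5 α, 3 β and 3 γ). Genes of proteins that bind to integrins, such as *Itgb1bp1*, do not match and were counted elsewhere.

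Each passage was sequenced as 1 droplet library of 3′ ends of RNA, from 1 culture. The cells were isolated from brains of 6 female wild-type C57BL/6N mice aged 6 to 8 weeks, and the labels give no treatment for either culture. By the study's methods each passage had its own isolation, while the text deposited with the files speaks of only 1, so passage and isolation cannot be told apart in what follows. By the study's methods the cells were passaged on plates coated with type I collagen, itself an integrin ligand, up to passage 5. The coating at later passages is not given. The medium was an endothelial growth medium at first and a pericyte medium from passage 2 on.

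Integrins are cell surface receptors made of 1 α and 1 β chain. They hold on to matrix proteins outside the cell and are linked through adaptor proteins to the actin cytoskeleton inside. The partners of a pair set what it binds: some pairs bind collagens, some bind laminins, and others bind proteins with an arginine-glycine-aspartate (RGD) motif such as fibronectin and vitronectin. Laminins are secreted trimers of an α, a β and a γ chain, named by the numbers of their chains, so that laminin 411 holds α4, β1 and γ1. They are the core of the basement membrane, the sheet of matrix that pericytes and endothelial cells of brain capillaries share.

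The cells kept were those with over 1000 detected genes and less than 20% of their unique molecular identifiers (UMIs, 1 per captured RNA molecule) from mitochondrial genes. They numbered 9950 in PC5 and 4749 in PC20, with medians of 21700 and 33424 UMIs per cell. A level is given as CPM, the UMIs of a gene per 1000000 UMIs of all kept cells of a library, and a log2 ratio is PC5 CPM over PC20 CPM. As 1 UMI stands for 1 molecule captured at its 3′ end, levels were not divided by gene length, and capture can still differ between genes. Because PC20 cells were deeper, most shares of cells with a UMI were read after each cell had been thinned at random to 10500 UMIs. This left 8847 PC5 and 4474 PC20 cells. Shares given as of thinned cells are of this kind. Those given as of cells were read in all kept cells without thinning. A gene was called detected where at least 1% of thinned cells held a UMI. For scale, 12 genes of neurons, oligodendrocytes, blood, liver and pancreas islets reached at most 0.0565% of thinned PC5 cells and 0% of thinned PC20 cells. A count of 0 was given a bound of 3 counts, here 3 of 4474 cells or 0.0671%. Parentheses hold 95% intervals that cover counting error in these libraries only. There are no replicates, no difference was tested, and "higher" compares the 2 libraries and not the passages in general.

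The summed level of 7 markers of the labelled cell type, the pericyte, was 55.9 CPM in PC5 against 8.96 CPM in PC20. Most of both sums was *Pdgfrb*, at 44.6 and 5.43 CPM. *Rgs5* and *Kcnj8* had 405 and 13 UMIs in PC5 and 0 in PC20, *Abcc9* had 1 UMI in each library, and *Anpep* alone was higher in PC20 beyond counting error, at 1.93 and 3.00 CPM. The 4 fibroblast markers summed to 1302 CPM in PC5 against 101.1 CPM in PC20. Most of both sums was *Col3a1*, at 1158 and 100.8 CPM, while *Pdgfra* was at 88.6 and 0.131 CPM, *Dcn* at 51.3 and 0.167 CPM and *Lum* at 3.57 and 0 CPM. The 4 epithelial markers summed to 0.229 CPM in PC5 against 1012 CPM in PC20. In PC5 *Krt18* had 30 UMIs, *Epcam* 11, *Krt8* 6 and *Cdh1* 4. The keratin genes *Krt8* and *Krt18* carried nearly all of the PC20 sum, whereas *Epcam* and *Cdh1* reached 0.291% and 0.156% of thinned PC20 cells. An *Mki67* or *Top2a* UMI, a sign of a dividing cell, was found in 44.97% of PC5 and 72.2% of PC20 cells. These shares were read without thinning, so the greater depth of PC20 cells can add to the difference. Smooth muscle markers summed to 283 and 49.6 CPM, with *Tagln* at 219 and 0.230 CPM and *Acta2* at 62.8 and 49.2 CPM. Of the endothelial markers *Kdr* was at 12.8 and 0.0680 CPM and *Flt1* at 17.6 and 73.9 CPM, while *Pecam1*, *Tek* and *Cldn5* were each in under 1% of thinned cells. Of the astrocyte markers *Aldh1l1* was at 7.35 and 0.0262 CPM and *Slc4a4* at 143 and 229 CPM. The libraries share 20 cell barcodes. The part of these differences in the values below was not tested, except that cells without an *Mki67* or *Top2a* UMI and cells without a shared barcode were also read on their own.

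Both passages held abundant RNA of integrin β1, laminin β1 and laminin γ1, but they differed in the α chains that go with them. The most abundant integrin α RNA was *Itgav* in PC5 and *Itga3* in PC20. The laminin α RNA was *Lama4* and *Lama2* in PC5 and almost only *Lama5* in PC20. Of the 38 genes, 21 were seen in 10% or more of the kept cells of either library. This share was read without thinning, so it is easier to reach in the deeper PC20 cells. Among these 21, 7 were at least 2-fold higher in PC5 (*Itga1*, *Itga5*, *Itga6*, *Itga10*, *Itgav*, *Lama2* and *Lama4*), 7 were at least 2-fold higher in PC20 (among them *Itga3*, *Itga4*, *Itga7*, *Itgb4*, *Itgb7* and *Lama5*) and 7 differed by less. Of all 10504 genes read in this way, 17.9% were at least 2-fold higher in PC5 and 19.1% in PC20. A gene that reached 10% of cells in 1 library alone was read only through the library where it was high, so these counts describe the genes read and not all 38. Over the 21 genes the median log2 ratio was -0.10, and over all genes it was -0.03. The α chain genes made up 11 of the 14 genes past 2-fold, namely 8 of the 9 integrin α genes and all 3 of the laminin α genes read. Most of these α genes (*Itga1*, *Itga4*, *Itga7*, *Itga10*, *Lama2*, *Lama4* and *Lama5*) reached 10% of cells only in the library where they were high, which favours such a count.

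**Figure D1:**
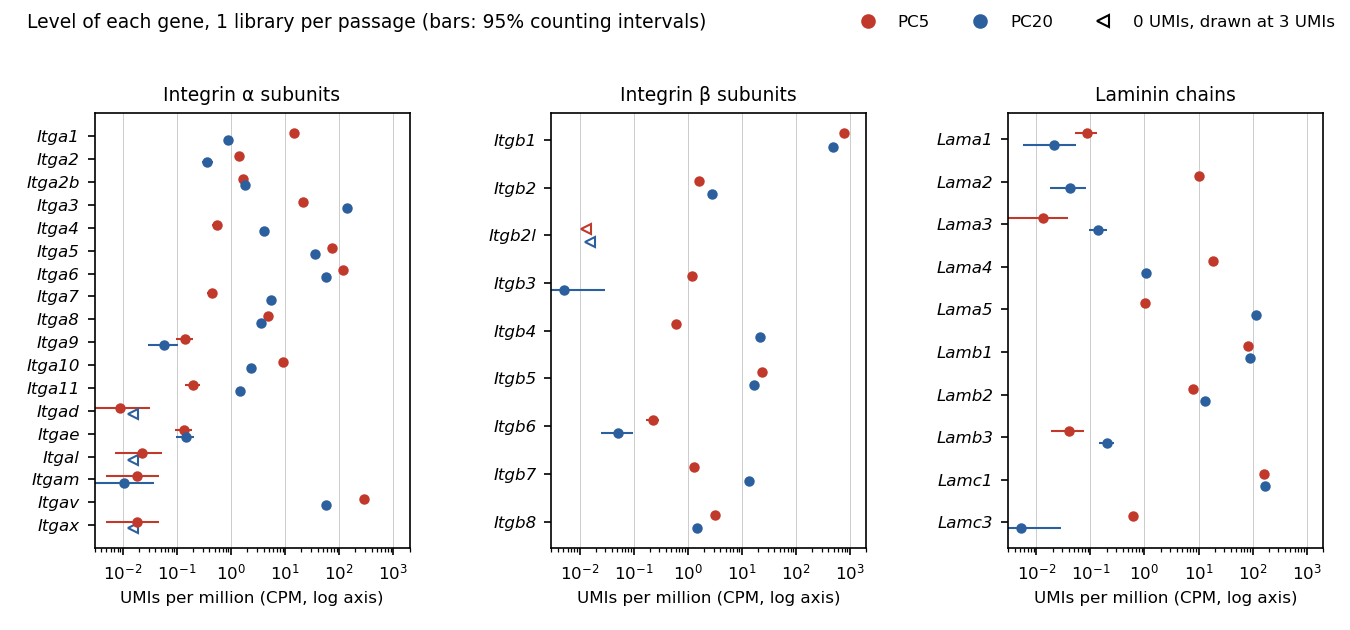
Level of each gene reported in PC5 (red) and PC20 (blue), as CPM on a log axis, with 95% Poisson intervals that cover counting error; open triangles are genes with 0 UMIs, drawn at the level of 3 UMIs. The paired points of *Itgb1*, *Lamb1* and *Lamc1* lie close together, while *Lama5* is at 1.01 CPM in PC5 against 114 CPM in PC20 and *Lama2* at 10.3 CPM and 0.0419 CPM.

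Among the integrin genes, the β1 chain was read first, since 12 of the 18 α chains can pair with it. *Itgb1* (chromosome 8 from 128685654 to 128733200 on GRCm38) had 171969 UMIs in PC5 against 91644 in PC20, or 771 CPM (767 to 775) and 480 CPM (476 to 483). A UMI was found in 99.7% and 97.9% of thinned cells. It made up 96.0% of all integrin β UMIs in PC5 and 89.4% in PC20, so the β1 chain was the main β RNA of both libraries, at a log2 ratio of 0.69 (0.67 to 0.70).

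The RGD-binding chains were mostly higher in PC5. *Itgav* (chromosome 2 from 83724397 to 83806916), the αv chain that pairs with several β chains, had 65142 UMIs in PC5 against 11036 in PC20, or 292 CPM (289.8 to 294) and 57.7 CPM (56.7 to 58.8). It was found in 93.3% of thinned PC5 cells and 43.2% of thinned PC20 cells, and the log2 ratio of its CPM was 2.34 (2.31 to 2.37). It was the leading integrin α RNA in PC5, with 54.2% of all α UMIs, against 18.5% in PC20. *Itga5*, the α chain of the classical fibronectin receptor, had 74.2 CPM (73.0 to 75.3) in PC5 against 36.0 CPM (35.2 to 36.9) in PC20, just past 2-fold. Among cells without an *Mki67* or *Top2a* UMI its log2 ratio was 0.996 and so under that size. *Itga8*, whose pair with β1 binds nephronectin, was within 2-fold at 4.74 and 3.53 CPM.

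The β partners of αv other than β1 were low. *Itgb5* was at 24.1 and 16.6 CPM and in 21.0% and 13.9% of thinned cells. *Itgb8*, part of a receptor that activates latent TGF-β, was at 3.25 CPM (3.02 to 3.5) in PC5 against 1.51 CPM (1.34 to 1.7) in PC20. *Itgb3* had 273 UMIs in PC5, in 1.36% of thinned cells, and 1 UMI in PC20, a log2 ratio of 7.87 with a counting interval from 5.38 to 13.18. *Itgb6*, known from epithelia, had 51 UMIs in PC5 against 10 in PC20 and was detected in neither library. Of these partners only *Itgb5* was read in over 10% of thinned cells.

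The α chains known mainly from laminin receptors, α3, α6 and α7, were split, with *Itga3* and *Itga7* higher in PC20 and *Itga6* higher in PC5. *Itga3* (chromosome 11 from 95044474 to 95076801) had 4790 UMIs in PC5 against 26952 in PC20, or 21.5 CPM (20.9 to 22.1) and 141 CPM (139 to 143). Its share of thinned cells was 18.8% (18.0 to 19.6) in PC5 and 70.9% (69.5 to 72.2) in PC20, and its log2 ratio was -2.72 (-2.76 to -2.67). In PC20 it was the leading integrin α RNA, with 45.2% of α UMIs against 3.98% in PC5. *Itga7*, best known as the laminin receptor of muscle, had 100 UMIs in PC5 against 1073 in PC20 and was detected in PC20 only, in 5.50% of thinned cells. *Itga6* (chromosome 2 from 71745616 to 71858416) was at 119 CPM (117 to 119.97) in PC5 against 56.9 CPM (55.8 to 58.0) in PC20. With 22.0% and 18.2% of α UMIs it came directly after *Itgav* in both libraries.

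*Itgb4*, the β chain that pairs with α6 alone and anchors keratin filaments in hemidesmosomes of epithelia, had the lowest log2 ratio of the integrin genes. It had 137 UMIs in PC5 against 4224 in PC20, or 0.614 CPM (0.516 to 0.726) and 22.1 CPM (21.4 to 22.8). A UMI was found in 0.656% of thinned PC5 cells and 17.1% of thinned PC20 cells, and the log2 ratio was -5.17 (-5.43 to -4.92). It lay on chromosome 11 from 115974709 to 116008412, where an antisense gene model, *B230344G16Rik*, overlaps its exons, with 7 and 16 UMIs. In PC20 *Itgb4* was thus above *Itgb5*, and in PC5 it was under the limit of detection. The keratin genes *Krt8* and *Krt18* were high in the same library, as given above.

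The 250 bases before the start of *Itgav* and of *Itga3* are shown because each of these genes led the integrin α RNA of 1 library, and they were chosen after the values were seen. The sequences are from RefSeq on GRCm38.p6, 5′ to 3′ on the strand of the gene. Capitals mark GGGCGG or its reverse complement, the GC box, searched on both strands together with the TATA box TATAAA, the CCAAT box, the AP-1 motif TGANTCA and the E box CACGTG.
Itgav, chr2:83724147-83724396, plus strand: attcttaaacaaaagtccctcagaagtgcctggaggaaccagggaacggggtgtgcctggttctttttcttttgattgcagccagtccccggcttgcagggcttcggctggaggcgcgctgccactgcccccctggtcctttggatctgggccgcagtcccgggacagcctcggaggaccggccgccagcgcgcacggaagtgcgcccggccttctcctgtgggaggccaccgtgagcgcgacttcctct
Itga3, chr11:95076715-95076964, minus strand: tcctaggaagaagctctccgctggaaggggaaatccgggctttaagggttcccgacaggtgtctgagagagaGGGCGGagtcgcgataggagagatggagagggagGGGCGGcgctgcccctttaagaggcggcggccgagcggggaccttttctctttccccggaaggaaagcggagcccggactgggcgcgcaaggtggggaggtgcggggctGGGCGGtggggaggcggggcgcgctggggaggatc
The *Itga3* stretch holds 3 GC boxes and 22 CpG dinucleotides, and the *Itgav* stretch holds 18 CpG and no match to any of the 5 motifs. Of 32851 RefSeq windows of this length 32.7% held a GC box and the median CpG number was 6. The RefSeq start used for *Itga3* lies inside the *Itga3* gene of GENCODE, whose end at 95076801 falls within the stretch, so part of the stretch is in that gene. *Itga3* has another RefSeq start with a window of its own, which is not shown. A match is a run of letters and not a site of binding.

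The collagen-binding chains differed gene by gene. *Itga1*, of the collagen and laminin receptor α1β1, was in 13.7% (12.9 to 14.4) of thinned PC5 cells and 0.738% (0.508 to 1.03) of thinned PC20 cells, which spans the 1% limit. It was the integrin gene read in over 10% of cells with the highest log2 ratio, 4.03. *Itga10*, the chondrocyte collagen receptor chain, was at 9.08 CPM (8.69 to 9.48) and 2.31 CPM (2.10 to 2.54). *Itga2*, the platelet collagen receptor chain, was in 1.40% of thinned PC5 cells and 0.402% of thinned PC20 cells. *Itga11*, which binds fibrillar collagen, was higher in PC20, with 44 UMIs in PC5 against 284 in PC20, or 0.237% and 1.23% of thinned cells. *Itga1* and *Itga2* are neighbours on chromosome 13, with 21.0 kb between them on the same strand, and both were higher in PC5.

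The chains of leukocyte and platelet integrins were low, with exceptions. *Itgal*, *Itgam*, *Itgax* and *Itgad*, the α partners of β2, had 5, 4, 4 and 2 UMIs in PC5 and 0, 2, 0 and 0 in PC20. The bound of 3 UMIs for a count of 0 is 0.0157 CPM in PC20. *Itgb2l* had 0 UMIs in both. *Itgb2* itself had 362 UMIs in PC5 against 548 in PC20, in 1.75% and 3.02% of thinned cells, while each of these α partners was in at most 0.0339% of thinned cells. *Itga2b*, the αIIb chain of platelets, was in 1.77% (1.51 to 2.07) and 1.88% (1.5 to 2.32) of thinned cells. Of the 5 microglia and leukocyte markers, *Cd48* and *Adgre1* were at 0 UMIs in both libraries, *Ptprc* had 1 in PC5 against 0, and *Aif1* had 9 against 1. *Csf1r*, which carried most of the list's 0.565 CPM in PC5, had 116 UMIs there, in 0.633% of thinned cells, and 3 UMIs in PC20. The platelet genes *Pf4* and *Ppbp* had 1 and 1 UMI in PC5 and 3 and 1 in PC20.

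*Itga4* and *Itgb7*, which form a homing receptor of lymphocytes, were both higher in PC20. *Itgb7* had 294 UMIs in PC5 against 2652 in PC20, or 1.32 CPM (1.17 to 1.48) and 13.9 CPM (13.4 to 14.4), and was read in 1.31% and 12.9% of thinned cells. *Itga4*, whose pair with β1 binds the adhesion protein VCAM-1, was in 0.633% and 4.13% of thinned cells. Exons of *Itga4* overlap those of *Cerkl* on the other strand, which had 164 and 186 UMIs, so reads there may be shared if counting did not use strand. Exons of 8 of the 38 genes are overlapped in this way, among them those of *Itga7* by *Mettl7b*, which had 47 and 11 UMIs. Exons of 3 are overlapped by a gene on the same strand, among them those of *Itga10* by *Gm42957*, which had 63 and 40 UMIs. *Itgae*, the other partner of β7, had 30 and 28 UMIs, and *Itga9*, a chain that binds tenascin-C, had 32 and 11, and neither was detected.

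Of the laminin genes seen in 10% or more of cells, those of the 3 α chains differed more than *Lamb1*, *Lamb2* and *Lamc1*. Each of the 3 α genes reached 10% in 1 library alone, whereas *Lamb1*, *Lamb2* and *Lamc1* did so in both. The α genes were thus read only through the library where they were high, which favours such a contrast. *Lama5* (chromosome 2 from 180176373 to 180225859), the α chain of laminins 511 and 521, had 225 UMIs in PC5 against 21881 in PC20, or 1.01 CPM (0.881 to 1.15) and 114 CPM (113 to 116). It was in 1.09% (0.880 to 1.32) of thinned PC5 cells, a share that spans the 1% limit, and in 65.7% (64.3 to 67.1) of thinned PC20 cells. Its log2 ratio of -6.83 (-7.02 to -6.64) was the lowest of the 38 genes, and its level was 113-fold higher in PC20.

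*Lama4* and *Lama2* had the opposite pattern. *Lama4* (chromosome 10 from 38965515 to 39110188), the α chain of laminins 411 and 421 that are typical of vessels, had 4131 UMIs in PC5 against 205 in PC20. It was in 17.3% (16.5 to 18.1) of thinned PC5 cells and 1.14% (0.850 to 1.496) of thinned PC20 cells, again across the limit. *Lama2* (chromosome 10 from 26980036 to 27619758), the α chain of laminins 211 and 221 that muscle is rich in, was in 10.3% (9.64 to 10.9) of thinned PC5 cells and 0.0671% (0.0138 to 0.196) of thinned PC20 cells, near the background genes. In PC5 61.8% of laminin α UMIs were *Lama4*, 34.5% were *Lama2* and 3.37% were *Lama5*. In PC20 98.9% were *Lama5*, 0.927% were *Lama4* and 0.0362% were *Lama2*. Summed over the 5 genes, laminin α RNA was at 30.0 CPM in PC5 against 116 CPM in PC20.

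**Figure D2:**
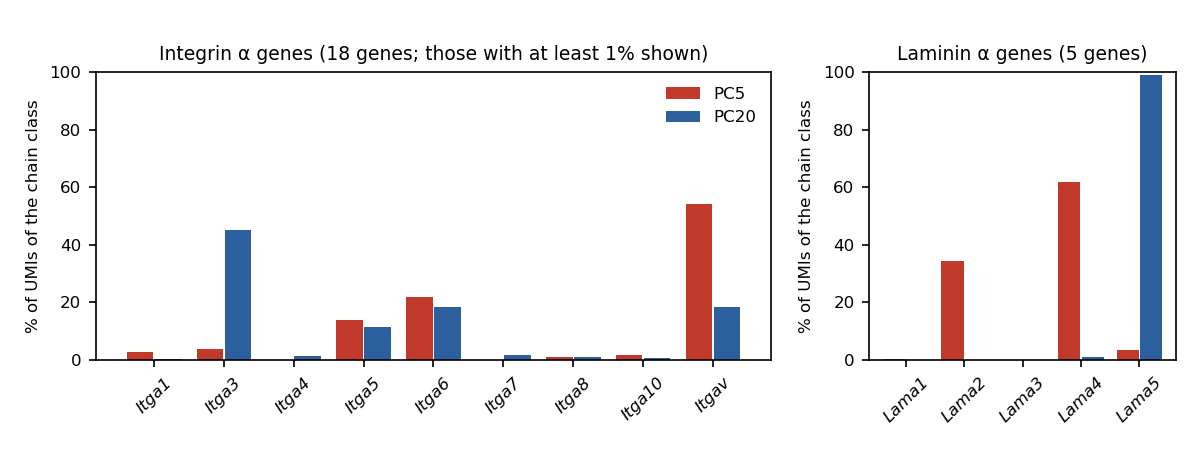
Share of each gene in the UMIs of all integrin α genes (left; of 18 genes, those with at least 1% in either library) and of all laminin α genes (right), for PC5 (red) and PC20 (blue), in percent. *Itgav* leads in PC5 at 54.2% and *Itga3* in PC20 at 45.2%; among laminin α genes, *Lama4* leads in PC5 at 61.8% and *Lama5* in PC20 at 98.9%.

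The 250 bases before the RefSeq starts of *Lama2* and *Lama5*, the laminin genes with the highest and lowest log2 ratios, are shown in the same way and were also chosen after the values were seen.
Lama2, chr10:27616943-27617192, minus strand: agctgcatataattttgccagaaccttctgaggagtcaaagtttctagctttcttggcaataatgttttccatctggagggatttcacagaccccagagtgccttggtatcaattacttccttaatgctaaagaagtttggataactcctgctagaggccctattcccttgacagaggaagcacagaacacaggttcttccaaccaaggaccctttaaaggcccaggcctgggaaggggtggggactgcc
Lama5, chr2:180225860-180226109, minus strand: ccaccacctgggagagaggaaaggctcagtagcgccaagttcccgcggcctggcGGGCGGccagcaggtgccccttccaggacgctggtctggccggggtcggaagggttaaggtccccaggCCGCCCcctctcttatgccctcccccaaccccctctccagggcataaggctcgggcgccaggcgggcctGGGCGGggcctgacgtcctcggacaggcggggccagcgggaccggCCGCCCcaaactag
The *Lama5* stretch held 4 GC boxes and 19 CpG dinucleotides at 72.4% G and C. The *Lama2* stretch held none of the 5 motifs and 0 CpG at 47.2% G and C, and its RefSeq start lies inside the *Lama2* gene of GENCODE, whose end is farther upstream. Of the 38 genes, 24 had a RefSeq window, and 8 of them held a GC box, 4 held CCAAT, 1 held TGANTCA, and 0 held TATAAA or CACGTG. Of all windows, 33.8% held CCAAT, 6.75% TGANTCA, 12.4% TATAAA and 6.02% CACGTG. CpG numbers over the genes' windows ran from 0 to 22 with a median of 10.0.

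The main chains that complete the trimers differed little between the libraries. *Lamb1* was at 82.2 CPM (81.0 to 83.4) and 91.0 CPM (89.6 to 92.3), and in 55.4% and 56.8% of thinned cells. *Lamc1* was at 160.3 CPM (159 to 162) and 172 CPM (169.9 to 174), and in 77.6% and 78.2% of thinned cells. Their log2 ratios of -0.15 and -0.10 were near the median of all genes, and they made up 91.3% and 98.5% of laminin β and γ UMIs in PC5 and 87.4% and 96.6% in PC20. *Lamb2*, the β chain of laminins 221, 421 and 521, was lower than *Lamb1* in both, at 7.80 CPM (7.43 to 8.17) and 12.9 CPM (12.4 to 13.5).

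The chains of the epithelial laminin 332 and of laminins 111 and 121 were not all there. *Lama3* had 3 UMIs in PC5 against 27 in PC20, and *Lamb3* had 9 and 39, and both stayed under 1% of thinned cells, so laminin 332 was not among the trimers with every chain detected. *Lama1*, an α chain known best from the embryo, had 19 and 4 UMIs. *Lamc3* had 138 UMIs in PC5, in 0.622% of thinned cells, and 1 UMI in PC20.

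Counting the genes above the 1% limit, 22 of the 38 were detected in PC5 and 22 in PC20. Of all 31053 genes, 37.6% were detected in PC5 and 36.1% in PC20. Of the 38, 18 were detected in both, and 12 genes were detected in neither. *Itga1*, *Itga2*, *Itgb3* and *Lama2* were detected in PC5 alone, and *Itga4*, *Itga7*, *Itga11* and *Itgb4* in PC20 alone. Of the 26 genes detected in either library, 69.2% were thus in both and 15.4% in each alone, where of all 12290 genes detected in either 86.1% were in both, 8.85% in PC5 alone and 5.05% in PC20 alone. Of the 8 detected in 1 library alone, the intervals of *Itga1* and *Itga11* in PC20 spanned the limit. Integrin genes made up 15 of the 22 in PC5 and 16 in PC20, and laminin genes 7 and 6.

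The next question was which receptors and laminins the detected RNAs could build. Of 24 integrin pairs known in mammals, both chains were detected for 12 in PC5 and 13 in PC20. These shared 8 pairs, namely α3β1, α5β1, α6β1, α8β1, α10β1, αvβ1, αvβ5 and αvβ8. The pairs of PC5 alone were α1β1, α2β1, αIIbβ3 and αvβ3, and those of PC20 alone were α4β1, α7β1, α11β1, α6β4 and α4β7. For 7 pairs a chain was detected in neither library: α9β1, αvβ6, αEβ7 and the 4 β2 pairs. By what they bind, the 8 RGD pairs were met by 7 in PC5 and 5 in PC20. The 4 collagen pairs were met by 3 and 2, and the 4 laminin pairs by 2 and 4. These groups did not overlap. Collagen pairs that also bind laminin, such as α1β1, were left out of the laminin counts. The laminin contrast between the libraries thus holds for this grouping only. The RGD pairs of PC5 alone, αIIbβ3 and αvβ3, both rest on *Itgb3*, which was in 1.36% of thinned PC5 cells. The collagen count of PC20 depends on *Itga1* and *Itga11*, whose intervals there spanned the 1% limit. RNA of both chains says nothing of whether the protein was made, paired or at the surface.

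Of 14 laminin trimers, all 3 chains were detected for 6 in PC5 and 4 in PC20. Those of PC5 were laminins 211, 221, 411, 421, 511 and 521, and those of PC20 were 411, 421, 511 and 521. The call rests on shares near the limit for laminins 511 and 521 in PC5 and 411 and 421 in PC20. With a limit of 10% of thinned cells, PC5 held 2 trimers, 211 and 411, and PC20 held 2 others, 511 and 521. With the same limit, PC5 held α1β1, α3β1, α5β1, α6β1, αvβ1 and αvβ5, and PC20 held the last 5 of these with α6β4 in place of α1β1.

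How often the chains of a complex were seen in the same cell was counted next. A UMI of both αv and β1 was in 93.0% (92.4 to 93.5) of thinned PC5 cells and 42.4% (40.9 to 43.8) of thinned PC20 cells. For α3β1 the order was reversed, with 18.7% (17.9 to 19.6) in PC5 and 69.6% (68.2 to 70.9) in PC20. Since β1 was in nearly all cells, these shares follow those of the α chain. The pair α6β1 was seen in 62.5% and 41.1% of thinned cells and α5β1 in 49.1% and 28.0%. Without thinning, where PC20 cells were deeper, α6β1 was in 77.3% and 73.9% and α5β1 in 68.8% and 63.4%.

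Pairs with another β chain were seen in fewer cells than αvβ1, α5β1 and α6β1, though in PC5 αvβ5 was above α3β1. The pair αvβ5 was in 19.9% (19.0 to 20.7) of thinned PC5 and 6.24% (5.55 to 6.98) of thinned PC20 cells. For α6β4 the shares were 0.463% (0.333 to 0.628) and 7.91% (7.14 to 8.74), and 1.20% and 35.0% without thinning. Some pairs with both chains detected were seldom read in the same cell. αIIb and β3 were in 1.77% and 1.36% of thinned PC5 cells, and a UMI of both was found in 1 of 8847. α4 and β7 were in 4.13% and 12.9% of thinned PC20 cells and met in 23 of 4474, or 0.514% (0.326 to 0.770). Chains that are each read in few cells seldom meet even where they are unrelated. These counts therefore do not show that the chains lie in different cells. Doublets were not removed, so some of these barcodes can hold more than 1 cell.

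A UMI of every chain of a laminin was seen in a minority of thinned cells. Such a laminin is called complete here, which refers to RNA and not to a trimer seen. A chain can be missed at this depth, so the shares do not tell which cells can form the trimer. In PC5, laminin 411 was complete in 8.78% (8.20 to 9.39) of thinned cells and laminin 211 in 4.49% (4.07 to 4.94), against 0.738% and 0.0224% in PC20. In PC20, laminin 511 was complete in 31.1% (29.7 to 32.5) and laminin 521 in 6.68% (5.97 to 7.45), against 0.509% and 0.0678% in PC5. Without thinning, laminin 511 was complete in 78.5% of PC20 cells and laminin 411 in 22.3% of PC5 cells. No laminin α UMI was seen in 73.1% of thinned PC5 cells and 33.9% of thinned PC20 cells, and *Lama4* and *Lama2* met in 1.55% of thinned PC5 cells.

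**Figure D3:**
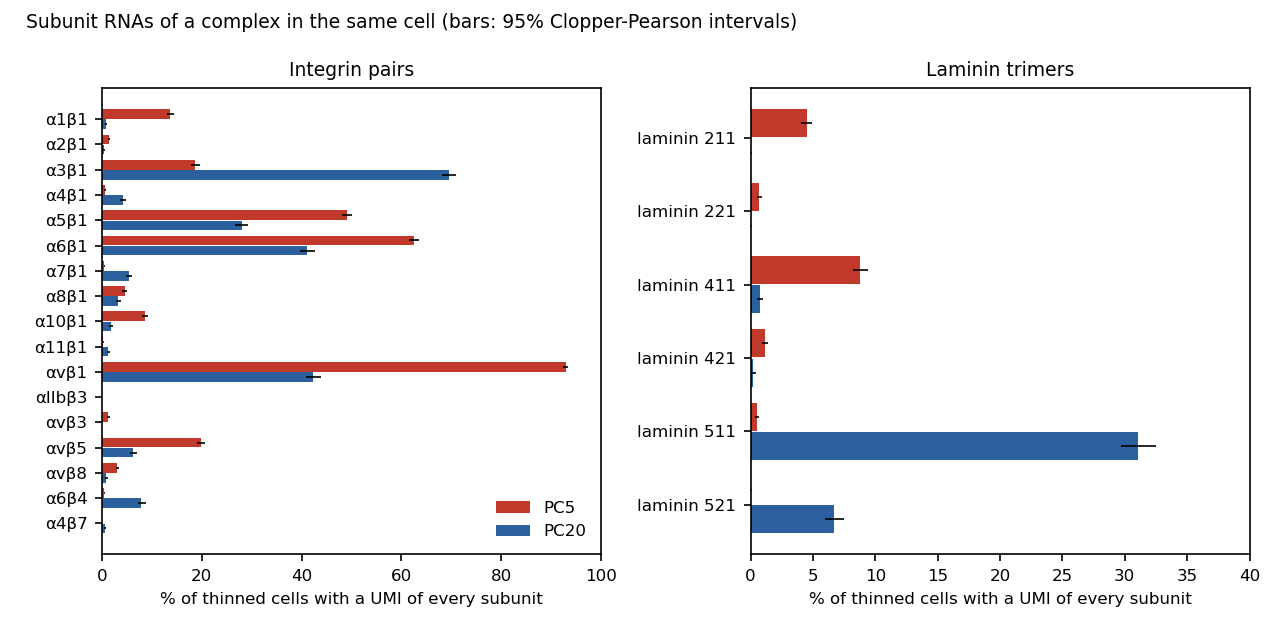
Share of thinned cells with a UMI of every chain of an integrin pair (left) or laminin trimer (right) in PC5 (red) and PC20 (blue), in percent with 95% Clopper-Pearson intervals for counting error, for the complexes whose chains were all detected in either library. The pair αvβ1 is at 93.0% in PC5 and 42.4% in PC20 and α3β1 at 18.7% and 69.6%, and laminin 411 is at 8.78% in PC5 and laminin 511 at 31.1% in PC20.

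A thinned cell held RNA of a median of 4 integrin genes in PC5 and 3 in PC20, and of 2 laminin genes in both. Within a library, most members varied a little more between cells than genes of like mean. The Fano factor, the variance of the thinned counts over their mean, was 1.26 for *Itgb5* and 1.29 for *Lama4* in PC5, where the 200 genes nearest in mean had medians of 1.05 and 1.05. In PC20 it was 1.35 for *Itgb7*, against 1.05. *Itgav* in PC5 lay below the median of its neighbours, at 1.38 against 1.502 and the 36th percentile. *Lamb2* in PC5 lay lower among its own, at 1.00 against 1.03 and the 6.5th percentile. Correlations of thinned counts across cells of a library were weak. Over 55 pairs of the 11 genes seen in at least 10% of thinned PC5 cells Pearson's r ran from -0.06 to 0.21. Over 66 pairs of 12 genes in PC20 it ran from -0.06 to 0.14. Library and depth were shared by all pairs. Counts per cell were low for most of these genes, which by itself keeps r low. The weak values therefore do not show that the genes vary independently.

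Some members differed between cells with and without an *Mki67* or *Top2a* UMI of the same library. *Lama4* was at 15.0 CPM in PC5 cells with such a UMI and 22.3 CPM in those without, and at 0.808 CPM and 2.15 CPM in PC20. *Itgb8* was at 2.63 and 3.93 CPM in PC5 and at 1.20 and 2.76 CPM in PC20, so both genes were lower in the cycling cells of both libraries. *Itgb5* was lower in cycling cells in PC5 alone, at 20.1 and 28.5 CPM, against 16.8 and 15.8 CPM in PC20. *Lama5* in PC20 was at 114 and 117 CPM, and *Itga3* at 142 and 137 CPM. The log2 ratio of *Lama4* was 4.11 in all cells and 3.37 in cells without these UMIs, and that of *Itgb8* was 1.11 and 0.51.

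Of the adaptors that link integrins to actin, 20 of 22 were read in at least 10% of cells. Of these, 6 were at least 2-fold higher in PC5, 1 in PC20 and 13 by less, with a median log2 ratio of 0.48 against -0.03 over all genes. Of all 10504 genes read in this way, 17.9% were past 2-fold in PC5 and 19.1% in PC20. *Zyx*, which encodes the focal adhesion protein zyxin, was at 352 and 132 CPM, and *Pxn*, which encodes the scaffold paxillin, at 97.7 and 22.2 CPM, with a log2 ratio of 2.14 (2.09 to 2.18). *Tln1*, which encodes talin, the protein that activates integrins through their β tails, was the 1 adaptor past 2-fold in PC20, at 108 and 235 CPM.

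Of 9 other basement membrane genes, 8 were read, 5 were at least 2-fold higher in PC5 and 1 in PC20, with a median log2 ratio of 1.08. The shares over all genes read were 17.9% and 19.1%. *Nid1*, whose product nidogen ties the laminin network to collagen IV, was at 1705 CPM in PC5 against 71.5 CPM in PC20, and its log2 ratio was 4.58 (4.55 to 4.60). *Col4a1*, a chain of that collagen, was at 1139 and 246 CPM. *Nid2* went the other way, at 17.8 and 30.2 CPM, and so did *Col18a1*, a basement membrane collagen, at 20.7 and 74.2 CPM, with a log2 ratio of -1.84 (-1.89 to -1.79).

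Of 10 membrane proteins that bind laminin or associate with integrins, 9 were read. Of these, 3 were at least 2-fold higher in PC5, 1 in PC20 and 5 by less, with a median log2 ratio of -0.06. Over all genes read, 17.9% were past 2-fold in PC5 and 19.1% in PC20. *Dag1*, which encodes dystroglycan, a laminin receptor that is no integrin, was at 241 and 70.2 CPM, and *Sdc3*, of the syndecan proteoglycans, at 40.0 and 2.58 CPM. *Cd9*, a tetraspanin that associates with integrins, was at 61.1 and 139 CPM.

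**Figure D4:**
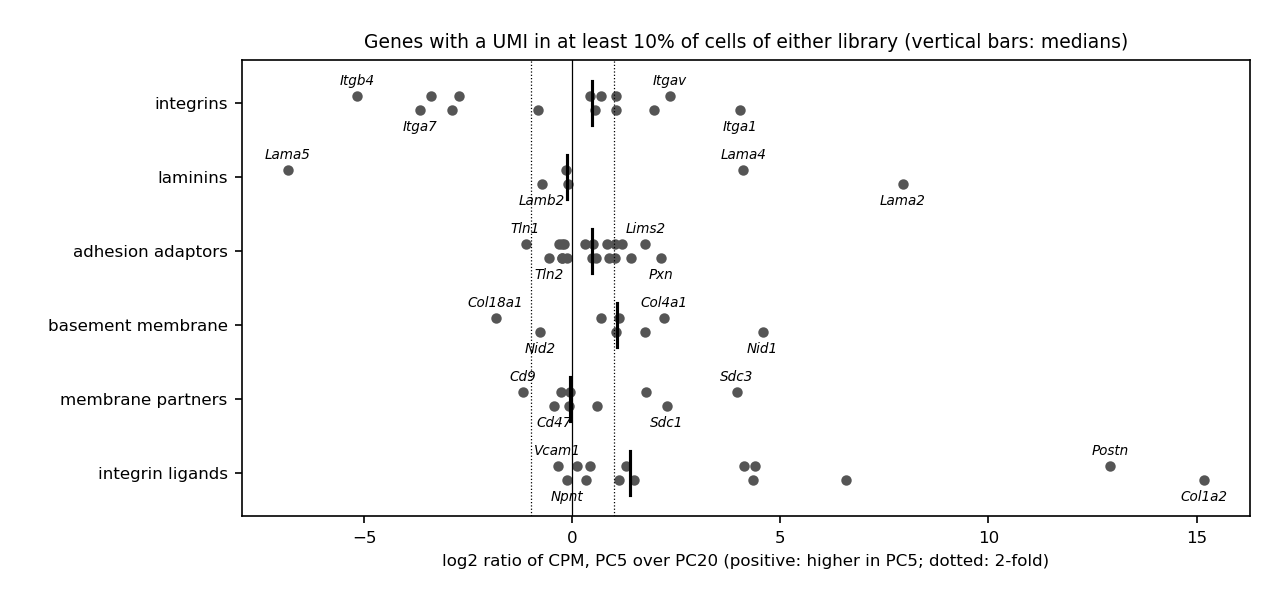
Log2 ratio of PC5 over PC20 CPM for the integrin, laminin and partner genes reported that were seen in 10% or more of the cells of either library, 1 point per gene, with the 2 highest and 2 lowest of each row named, the median as a vertical bar and 2-fold as dotted lines. Integrin and laminin genes lie on both sides of 0, from -6.83 for *Lama5* to 7.95 for *Lama2*, while of the integrin ligands 9 are past 2-fold in PC5 and 0 in PC20. Over all genes read, 17.9% are past 2-fold in PC5 and 19.1% in PC20.

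Of 15 further integrin ligands, 14 were read, 9 were at least 2-fold higher in PC5 and 0 in PC20, with a median log2 ratio of 1.39. Over all genes read the shares were 17.9% and 19.1%. Some ligands, among them *Col1a2* and *Postn*, reached 10% of cells in PC5 alone and so were read only through the library where they were high. Of the ligands of the collagen receptors, *Col1a2* had 387374 UMIs in PC5 against 9 in PC20, and *Col1a1* was at 576 and 6.04 CPM. *Postn*, which encodes periostin, a ligand of αv integrins, had 18051 UMIs in PC5 against 2 in PC20. *Vcam1*, the ligand of α4β1, had a log2 ratio of -0.35, and *Npnt*, the ligand of α8β1, one of -0.12, both within 2-fold.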

How the data were processed

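Single-cell RNA libraries of cultured mouse brain PCs at passage 5 and passage 20 were analysed, 1 per passage, grouped by their labels. The deposited values are counts: the authors mapped reads to mm10 with Cell Ranger (5.0 per the labels, 5.0.1 per the file headers), called cell barcodes and counted UMIs per gene and barcode, with no normalization. The annotation release and strand setting of the counting are not given in the sources used here. Depth was 223978480 UMIs in 10629 barcodes and 191306354 in 4884. The tables hold no comparisons made by the authors.

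Cells were filtered as in the study's methods, and doublets were neither called nor removed. UMIs were summed per library for CPM and log2 ratios, without a pseudocount. Intervals are exact Poisson (CPM), conditional binomial (log2 ratio) and Clopper-Pearson (shares), at 95%. With 1 library per passage no test was made. Cells were thinned to 10500 UMIs, the 10th percentile rounded down to a multiple of 500. Thinning left out 1103 PC5 and 275 PC20 cells. The computation was tested on simulated data. Positions are from GENCODE M21 on GRCm38, which held all 38 genes, and upstream sequences from RefSeq.

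The 38 genes, the 24 integrin pairs, the 14 trimers and the partner lists were chosen with earlier results of these data known. All of these genes but 1, which is not reported here and not plotted, are named, and of each partner list at most the 3 highest and 3 lowest log2 ratios. The alternatives were other limits of detection, cell filters, scalings and sizes of ratio. Leaving out barcodes shared by both libraries, and the alternatives for shares of cells with a whole complex, were added after the data were seen. Used were Python 3.11.15, numpy 2.4.6, scipy 1.17.1 and pandas 2.3.3.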

Additional observations from a re-analysis of the deposited data

How the results depend on the processing

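The calls of detection depended on the limit. With a limit of 5% of thinned cells the detected integrin genes numbered 8 in PC5 and 9 in PC20, the integrin pairs 7 and 7, and the trimers of PC20 2. With a limit of 10% the integrin genes numbered 7 and 8, the laminin genes of PC5 4, the pairs 6 and 6, and the trimers 2 and 2. With a limit of 0.5%, and without thinning, the PC5 pairs gained α4β1, α6β4 and α4β7, so that of the 5 pairs of PC20 alone only α7β1 and α11β1 were left. PC20 gained α1β1 in both settings, and α2β1 without thinning. In both settings the trimers of PC5 rose to 9, with laminins 213, 423 and 523 added, and those of PC20 stayed at 4. Where a UMI in 1% of cells was enough, 11 of 27 genes were at least 2-fold higher in PC5 and 8 in PC20, against 22.3% and 20.0% of all genes. At 4-fold, 4 of 21 were higher in PC5 and 6 in PC20, against 7.20% and 6.20% of all genes. With a pseudocount of 1 on UMIs per 10000, 1 of 21 (*Itgav*) was at least 2-fold higher in PC5 and 1 (*Lama5*) in PC20, against 1.40% and 1.37%. Other cell filters, leaving out shared barcodes, and other library sizes kept each count within 1.5 times.

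Of 34 log2 ratios, none changed direction beyond its counting interval in any alternative. They moved past that interval for 15 of 31 among cells without an *Mki67* or *Top2a* UMI, where *Itga4* was no longer read in 10% of cells and *Itgb2* was at -1.34, for 10 of 34 as means over cells, for 8 of 29 in thinned cells, for 5 of 34 after centring and for 1 of 34 without mitochondrial and ribosomal protein genes. No paired analysis was possible because each passage has 1 library. Depth limits the genes under 1% of thinned cells, for which a missing UMI does not show that the RNA is absent.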
